A study of Mus musculus with 20 samples.

Results

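The genes described here are 10 that muscle is known to switch on when fuel runs from glucose to fat: the factors Foxo1 and Foxo3, the receptors Ppara and Ppard, and the targets Pdk4, Ucp3, Angptl4, Plin2, Acot1 and Ucp2. Each was found in the deposited counts by matching its Ensembl identifier to its symbol, which gave 10 of 10 genes among 55416 listed. All 10 had enough reads to be tested. The counts came from 20 quadriceps muscles of old mice, 10 injected with saline and 10 with a secretome, a pooled, cell-free product that cells derived from pluripotent stem cells release into their medium. The mice were wild-type male C57BL/6J animals aged 26 to 28 months. All of them had been fasted for 4 h, received 1 injection, and were killed 3 h later. No fed mice were part of the experiment, so the values compare treatments in the fasted state and do not measure the response to fasting.

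As background, insulin holds the FoxO proteins outside the nucleus through the kinase Akt. When insulin falls, they enter the nucleus and switch on genes that spare glucose and break down protein. The PPAR receptors are nuclear receptors that bind fatty acids and pair with the retinoid X receptors on direct repeats of a short sequence, and they switch on genes of fatty acid uptake, storage and oxidation. Several muscle genes, of which Pdk4 is the best known, respond to both, and glucocorticoids raise some of them as well.

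Each library held between 13286983 and 22987237 counted reads. The share of one gene, Ttn (titin), set apart 3 ranges of library numbers: 7.02% to 11.03% in libraries 1 to 5, all control, 16.4% to 21.1% in libraries 6 to 15, 5 of each treatment, and 14.2% to 14.7% in libraries 16 to 20, all secretome. The labels do not name these ranges as a batch. Each gene was therefore compared in all 20 muscles, within libraries 6 to 15, and in the outer libraries (16 to 20 against 1 to 5), where treatment and library range cannot be told apart. The 10 muscle genes used to check the labelled tissue added up to between 130630 and 366200 CPM (counts scaled to a common library size), and no sample lacked them.

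None of the 10 genes differed between secretome and control muscle at a 5% false discovery rate in edgeR after the filter on low counts, and the direction of most of them depended on which libraries were compared. In all 20 muscles, the quasi-likelihood test of edgeR, adjusted after Benjamini and Hochberg, called 0 of the 10, against 0.00691% of the 14471 genes tested. At an unadjusted p under 0.05 it called 1, Ucp2, the mitochondrial carrier uncoupling protein 2, which was lower in secretome muscle, against 15.7% of all genes (9.21% in this direction). Within libraries 6 to 15, all 10 log2 fold changes were below 0, against 52.1% of all genes, and their median was -0.48, against -0.01 for all genes. Ppard among them lay at -0.01 (standard error 0.175), with 4 of its 5 secretome muscles above the control median. In the outer libraries, 8 of 10 were above 0, against 44.2% of all genes, and their median was 0.34, against -0.05. In the same outer libraries 8 of the 10 muscle genes were above 0 as well (median 0.55). Of these muscle genes, 4 were higher at an unadjusted p under 0.05, against 6.53% of all genes. Their sums were 130630 to 221320 CPM in control and 240440 to 310830 CPM in secretome muscle. Ttn, whose share set the ranges apart, is among them, with means of 82407 CPM in control and 149450 CPM in secretome muscle there. The part of the muscle genes in the values of the outer libraries was not tested. The edgeR test also called 0 of the 10 at the false discovery rate within libraries 6 to 15 and in the outer libraries, against 0% of genes in each. DESeq2 called 0 of the 10 in all muscles, against 216 of 17310 genes. Within libraries 6 to 15 it called 1 of the 10, Ucp2, against 37 of 15488 genes. In all muscles limma voom called 0 of the 10, against 3 of 14471 genes.

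**Figure D1:**
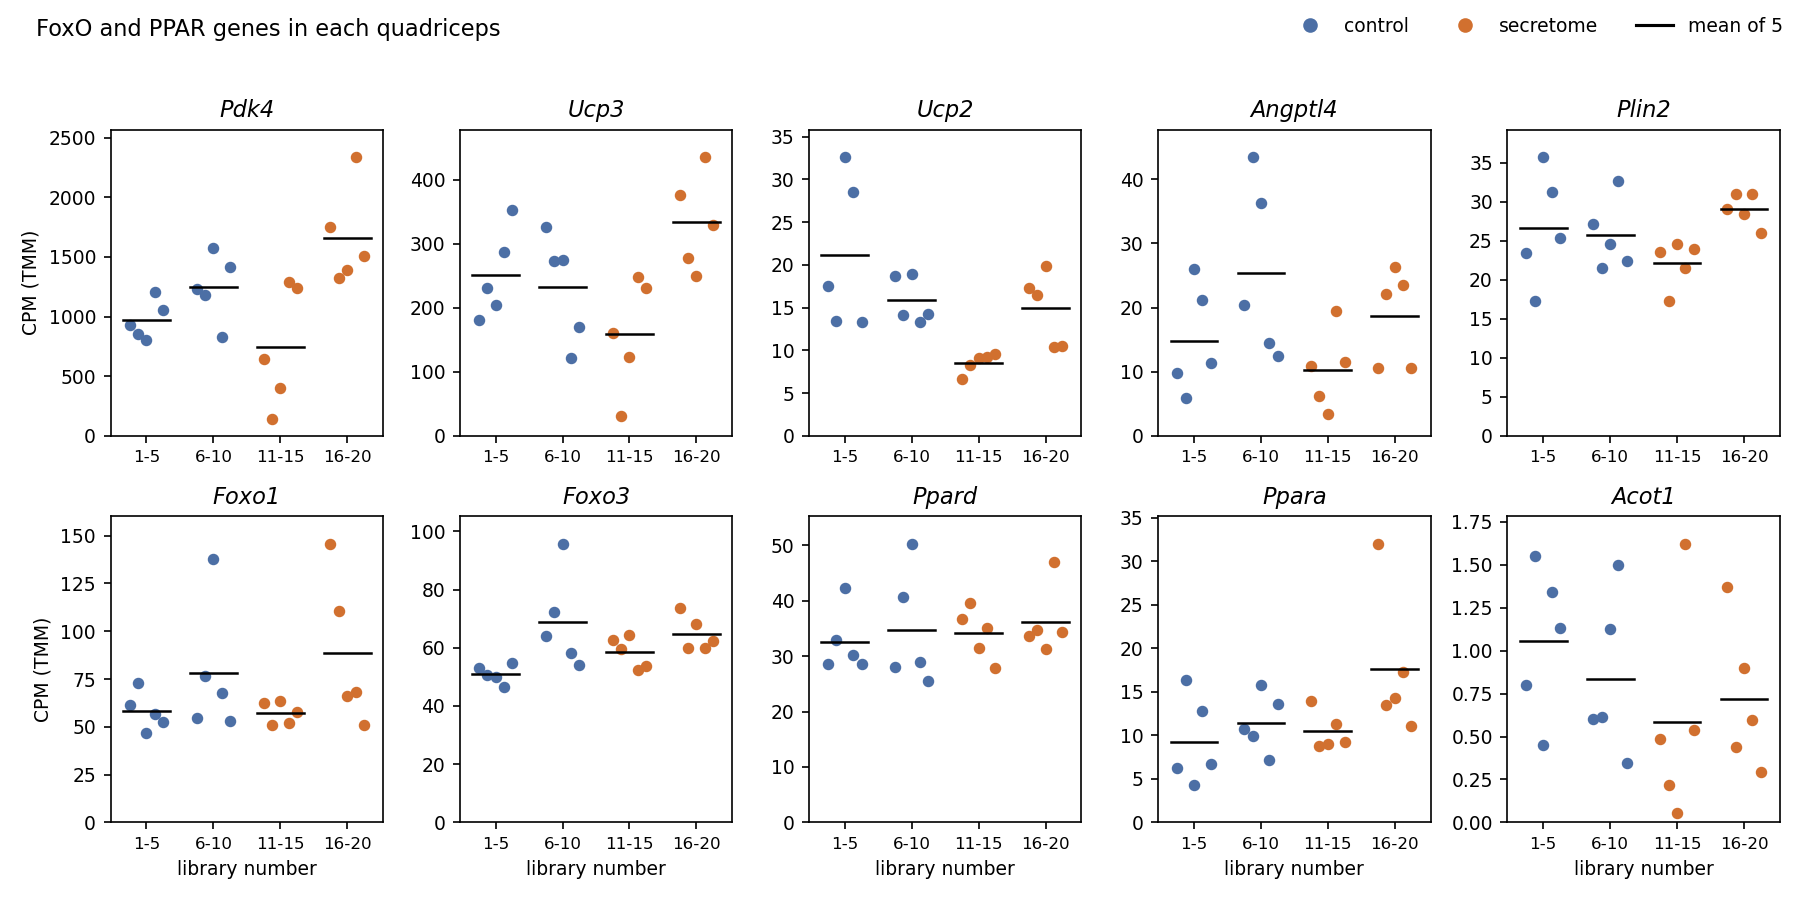
CPM normalised with TMM (vertical axis, starting at 0) of the 10 genes in each of the 20 muscles, by library number (horizontal axis). Each point is a muscle, blue for control and orange for secretome, and each bar is the mean of 5; the Ucp2 points of libraries 11 to 15 lie between 6.62 and 9.59 CPM, below all other muscles.

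Per kilobase of exon, and over all 20 muscles, the kinase gene Pdk4 stood highest at 329 ± 138 CPM per kb (mean ± SD, n = 20), followed by Ucp3 at 77.9 ± 30.9. Both were above the gene next in order in 20 of 20 muscles. Foxo1 (8.13 ± 3.24), Foxo3 (8.02 ± 1.45) and Plin2 (7.38 ± 1.40) followed and did not differ from each other beyond their spread. Angptl4 (4.88 ± 2.92), Ppard (4.58 ± 0.888), Ppara (3.18 ± 1.52) and Ucp2 (2.16 ± 0.941) came next, again with overlapping spreads between neighbours. Acot1 was far lower at 0.204 ± 0.124 CPM per kb, below Ucp2 in 20 of 20 muscles. This order is of levels per length and holds for the lengths of the annotation used here.

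The 250 bases before the start of 9 of the 10 genes were read from RefSeq (GRCm38.p6), on the strand of each gene and ending at the base before its start. The PPAR half-site AGGTCA, on either strand, was found in 2 of the 9 windows, those of Ucp3 and Plin2, and in 14.02% of 32851 promoters of the same length. In Ucp3 it began 149 and 44 bases before the start, and in Plin2 218 bases before it. The direct repeat AGGTCANAGGTCA (0.0335% of all promoters), the FoxO core GTAAACA (3.17%) and the glucocorticoid element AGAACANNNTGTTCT (0.00913%), each on both strands, matched 0 of the 9. The direct repeat holds the half-site, so these 2 searches overlap. The windows of Pdk4 and Ucp3, the pair of genes that varied together most closely, and of Plin2 are printed, with half-sites in capitals. The match in Plin2 lies on the opposite strand and reads TGACCT.
Pdk4, chr6:5496279-5496528, minus strand: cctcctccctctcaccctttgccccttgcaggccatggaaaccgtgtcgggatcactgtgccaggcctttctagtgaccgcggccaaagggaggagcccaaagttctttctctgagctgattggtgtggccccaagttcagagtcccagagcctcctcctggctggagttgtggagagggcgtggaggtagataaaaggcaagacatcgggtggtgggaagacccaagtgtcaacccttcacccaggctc
Ucp3, chr7:100472741-100472990, plus strand: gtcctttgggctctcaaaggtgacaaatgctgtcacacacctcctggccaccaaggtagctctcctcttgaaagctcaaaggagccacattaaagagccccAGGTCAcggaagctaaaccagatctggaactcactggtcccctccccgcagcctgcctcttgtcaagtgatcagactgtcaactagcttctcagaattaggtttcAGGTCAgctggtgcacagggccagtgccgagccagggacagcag
Plin2, chr4:86670060-86670309, minus strand: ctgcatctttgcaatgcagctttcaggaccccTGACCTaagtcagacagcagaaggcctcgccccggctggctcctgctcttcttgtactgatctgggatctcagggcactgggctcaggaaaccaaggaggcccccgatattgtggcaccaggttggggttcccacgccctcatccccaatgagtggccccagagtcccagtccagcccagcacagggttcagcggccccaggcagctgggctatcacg
A match says only that these letters occur in the window, not that a factor was bound.

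Foxo1 encodes a forkhead factor that drives Pdk4 and muscle atrophy genes in fasting. Its CPM were 61.4, 73.1, 46.5, 56.7 and 52.5 in control libraries 1 to 5 and 54.5, 76.4, 138, 67.9 and 53.2 in control libraries 6 to 10. In secretome muscle they were 62.4, 50.8, 63.5, 51.8 and 57.8 in libraries 11 to 15 and 146, 111, 66.4, 68.1 and 51.2 in libraries 16 to 20. Control 8 and secretome 6 and 7 stood above all other muscles, and the treatments overlapped in every comparison. Over all muscles the log2 fold change was 0.10 (standard error 0.210, edgeR adjusted p = 0.841). Libraries 6 to 15 gave -0.43 (0.230, adjusted p = 0.547) and the outer libraries 0.60 (0.258, adjusted p = 0.279). Without control 8 the value within libraries 6 to 15 was -0.12, and without secretome 6 the value in the outer libraries was 0.35. The annotation places an unclassified transcript on the same strand over part of Foxo1 (Gm38034, 72 to 488 counts per library). Reads shared with it, if any, may have been dropped in the counting.

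Foxo3, the second forkhead factor of muscle and the main driver of the atrophy ligases, varied less. It had 53.0, 50.6, 50.0, 46.4 and 54.6 CPM in control libraries 1 to 5 and 64.0, 72.3, 95.7, 58.1 and 54.1 CPM in control libraries 6 to 10. Secretome libraries 11 to 15 had 62.6, 59.5, 64.3, 52.3 and 53.6 CPM, and secretome libraries 16 to 20 had 73.5, 60.0, 68.2, 60.0 and 62.3 CPM. Every secretome muscle of the outer libraries was above every control there, which was also the case for Pdk4 and for 4.85% of all genes (2.46% in this direction). There the log2 fold change was 0.35 (standard error 0.106, unadjusted p = 0.00628, edgeR adjusted p = 0.164). Libraries 6 to 15 gave -0.22 (0.141, adjusted p = 0.598), and -0.07 without control 8. Over all muscles it was 0.04 (0.110, adjusted p = 0.877).

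Ppara encodes the receptor that governs fatty acid oxidation in liver and in oxidative muscle. Control libraries 1 to 5 had 6.19, 16.3, 4.33, 12.8 and 6.74 CPM, and control libraries 6 to 10 had 10.8, 9.94, 15.7, 7.21 and 13.6 CPM. Secretome libraries 11 to 15 had 13.9, 8.81, 9.01, 11.3 and 9.20 CPM, and libraries 16 to 20 had 32.0, 13.4, 14.3, 17.2 and 11.1 CPM. Secretome 6 stood above all other muscles, and the treatments overlapped throughout. The log2 fold change was 0.44 over all muscles (standard error 0.252, edgeR adjusted p = 0.399), -0.12 within libraries 6 to 15 (0.202, adjusted p = 0.841) and 0.92 in the outer libraries (0.382, adjusted p = 0.271). Without secretome 6 the last value was 0.59 and the first 0.22.

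Ppard, the receptor that predominates in skeletal muscle, had the log2 fold change nearest to 0 within libraries 6 to 15. It ranged from 25.5 to 50.3 CPM in control muscle, with a median of 29.6, and from 27.8 to 47.1 CPM in secretome muscle, with a median of 34.6. Of the 10 secretome muscles, 9 were above the control median, and the ranges overlapped. Within libraries 6 to 15, 4 of 5 secretome muscles were above the control median there. The sign of the log2 fold change turned in 4 of the 10 fits that left out a muscle of these libraries. Over all muscles its log2 fold change came to 0.07 (standard error 0.118, edgeR adjusted p = 0.812), -0.01 (0.175, adjusted p = 0.983) within libraries 6 to 15 and 0.16 (0.149, adjusted p = 0.620) in the outer libraries.

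Pdk4 encodes pyruvate dehydrogenase kinase 4, which shuts off the entry of pyruvate into the citric acid cycle and is the classic gene of the fasted muscle. It had 931, 857, 807, 1207 and 1059 CPM in control libraries 1 to 5 and 1229, 1181, 1573, 829 and 1413 CPM in control libraries 6 to 10. Secretome libraries 11 to 15 had 644, 143, 405, 1288 and 1238 CPM, and libraries 16 to 20 had 1752, 1327, 1389, 2335 and 1508 CPM. Secretome 1, 2 and 3 held the 3 lowest values of all 20 muscles, and secretome 9 the highest. The SD was 259 CPM among controls and 651 CPM among secretome muscles, and the means were 1109 and 1203 CPM (n = 10 each).

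The log2 fold change of Pdk4 over all muscles was 0.12 (standard error 0.316, edgeR adjusted p = 0.879). Libraries 6 to 15 gave -0.73 (0.513, adjusted p = 0.641), where 3 of 5 secretome muscles were below the control median, and -0.46 without secretome 2. The outer libraries gave 0.77 (0.187, unadjusted p = 0.00126, adjusted p = 0.120), a 1.71-fold higher level, and no secretome muscle there overlapped a control. The 2 values differed by -1.52 on the log2 scale (0.534, unadjusted p = 0.0102, adjusted p = 0.274).

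Ucp3, the mitochondrial carrier that muscle makes when fatty acids are abundant, followed the same muscles. It had 181, 231, 204, 288 and 352 CPM in control libraries 1 to 5 and 327, 273, 274, 121 and 171 CPM in control libraries 6 to 10. In secretome libraries 11 to 15 it had 161, 30.8, 122, 248 and 232 CPM, and in libraries 16 to 20 it had 376, 278, 249, 435 and 330 CPM. Secretome 2 was lowest and secretome 9 highest, as for Pdk4, and the treatments overlapped in all 3 comparisons. Over all muscles its log2 fold change came to 0.02 (standard error 0.304, edgeR adjusted p = 0.975), -0.54 (0.497, adjusted p = 0.707) within libraries 6 to 15 and 0.41 (0.208, adjusted p = 0.348) in the outer libraries. An antisense gene lies across Ucp3 (Gm10603, 11 to 98 counts per library).

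Angptl4, a secreted inhibitor of lipoprotein lipase and a PPAR target, had the lowest log2 fold change of the 10 within libraries 6 to 15. There the control muscles had 20.3, 43.4, 36.3, 14.4 and 12.4 CPM and the secretome muscles 10.8, 6.12, 3.45, 19.4 and 11.4 CPM. Only secretome 4 reached into the control range, being above 2 of the 5 controls. The log2 fold change was -1.30 (standard error 0.499, unadjusted p = 0.0269, edgeR adjusted p = 0.470), a level 0.406 times that of the controls. The outer libraries had 9.77, 5.96, 26.0, 21.2 and 11.3 CPM in control and 10.6, 22.1, 26.4, 23.5 and 10.6 CPM in secretome muscle, which overlapped. Their log2 fold change was 0.34 (0.389, adjusted p = 0.691), and that over all muscles was -0.48 (0.364, adjusted p = 0.528).

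Plin2, which coats lipid droplets, spanned similar ranges in both treatments. It ranged from 17.3 to 35.7 CPM in control muscle, with a median of 24.996, and from 17.3 to 31.0 CPM in secretome muscle, with a median of 25.3. Over all muscles its log2 fold change came to -0.03 (standard error 0.122, edgeR adjusted p = 0.926), -0.20 (0.132, adjusted p = 0.611) within libraries 6 to 15 and 0.13 (0.167, adjusted p = 0.717) in the outer libraries. Acot1, which frees fatty acids from coenzyme A in the cytosol, had 1 to 27 counts per library and a log2 fold change of -0.54 (0.394, adjusted p = 0.510) over all muscles. Of the 50-base words in its transcripts, 13.6% also occur in its neighbour Acot2, so reads of the 2 genes may have been split or dropped in the counting.

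Ucp2 had the smallest p of the 10 genes over all muscles and within libraries 6 to 15. In the latter the control muscles had 18.7, 14.1, 18.98, 13.3 and 14.2 CPM, and the secretome muscles had 6.62, 8.33, 9.06, 9.23 and 9.59 CPM. Every secretome muscle was below every control, as in 1.91% of all genes (1.09% in this direction), and Ucp2 was the only one of the 10 with this separation. The mean was 15.8 ± 2.74 CPM in control and 8.57 ± 1.18 CPM in secretome muscle (SD, n = 5 each). The log2 fold change was -0.87 (standard error 0.146, unadjusted p = 3.085e-05), or 0.546 times the control level, and did not pass the false discovery rate in edgeR (adjusted p = 0.174). It passed in DESeq2 (adjusted p = 0.000203) and in edgeR when low counts were kept (adjusted p = 0.00408).

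In the outer libraries Ucp2 had 17.6, 13.5, 32.6, 28.5 and 13.3 CPM in control and 17.3, 16.5, 19.9, 10.4 and 10.5 CPM in secretome muscle. Controls 3 and 4 stood highest, and the treatments overlapped. The log2 fold change there was -0.49 (standard error 0.277, edgeR adjusted p = 0.393), and -0.29 without control 3. Over all muscles it was -0.65 (0.209, unadjusted p = 0.00493, adjusted p = 0.174), with 7 of 10 secretome muscles below the control median. Ucp2 and Acot1 were the 2 genes below 0 in both sets of libraries, and the 2 values of Ucp2 differed by -0.39 (0.334, unadjusted p = 0.258).

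Ucp2 is made by many cell types and is abundant in macrophages, so the markers of other cells are given beside it. The 9 macrophage markers added up to between 54.9 and 89.99 CPM in secretome libraries 11 to 15 (median 66.9) and between 86.4 and 185 CPM in control libraries 6 to 10 (median 102). Within these libraries all 9 had a log2 fold change below 0 (median -0.82), 6 of them at an unadjusted p under 0.05, against 4.92% of all genes in this direction, and of the 9 only Fcgr1 was at 0 counts in any library. Lyz2, which encodes lysozyme, was at -0.68 (edgeR adjusted p = 0.450). Those sums in the outer libraries ranged from 95.7 to 250 CPM in control and from 67.4 to 195 CPM in secretome muscle. Across muscles, Ucp2 was also set against the mean log2 CPM of the 9 macrophage markers, not their sum. After removal of the means of treatment and library range, the Pearson r was 0.612 (n = 20). This r was -0.49 within libraries 6 to 15 and 0.895 in the others. The two-sided permutation p was 0.0276 (adjusted over 60 relations chosen after the values were seen, 0.184), Spearman's rho was 0.525 (permutation p = 0.0508), and r was 0.565 without control 3 and secretome 1. In pieces of whole muscle, fewer cells of a type and less RNA per cell cannot be told apart, and the part of macrophages in the Ucp2 difference was not tested.

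**Figure D2:**
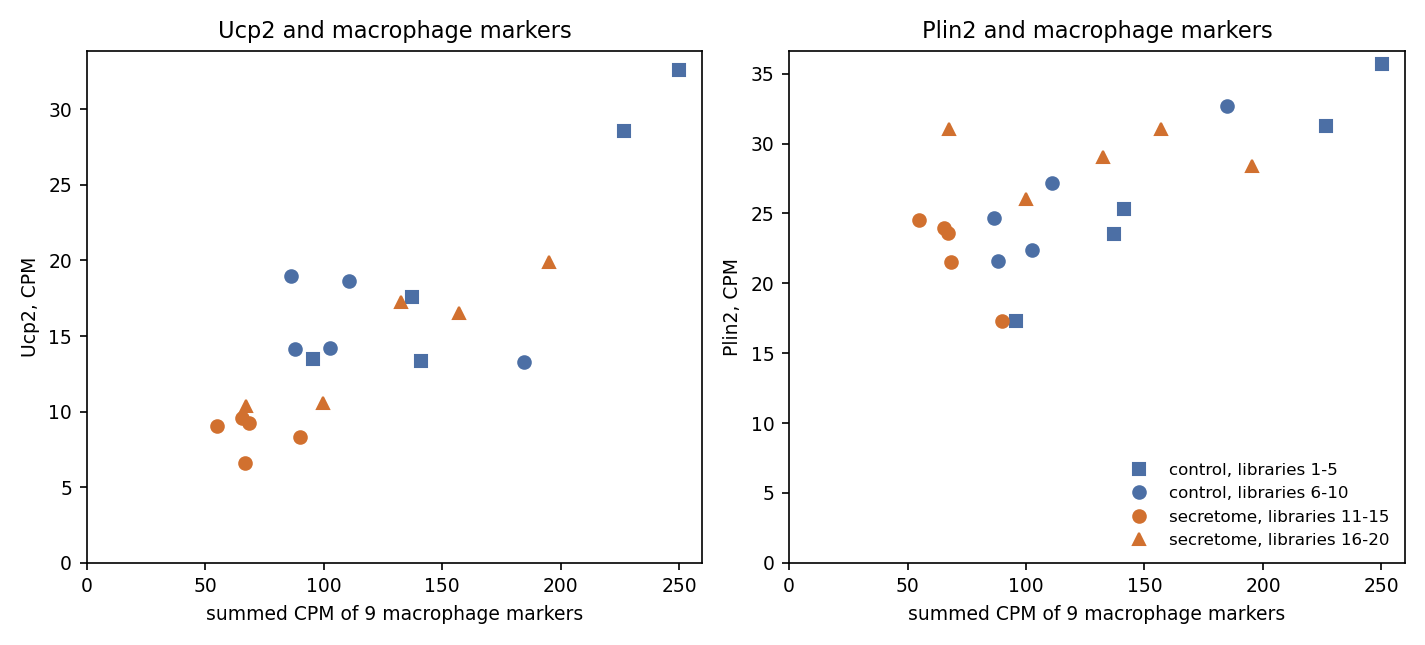
Ucp2 (left) and Plin2 (right) in CPM (vertical axes) against the summed CPM of 9 macrophage markers (horizontal axes), both from 0, in each of the 20 muscles. Colour gives the treatment and shape the library range; the 5 secretome muscles of libraries 11 to 15 lie at 54.9 to 89.99 CPM of macrophage markers and below 10 CPM of Ucp2.

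Other cell type markers were read in the same way within libraries 6 to 15, and 0 of them passed the false discovery rate. The 7 adipocyte markers were all below 0 in log2 fold change (median -0.49, 3 at an unadjusted p under 0.05), with sums of 60.1 to 136 CPM in secretome and 119 to 172 CPM in control muscle, and Fabp4, a fatty acid carrier, was at -0.15. The 6 slow-fibre genes were all below 0 (median -2.83, 2 at an unadjusted p under 0.05), with sums of 1.85 to 35.6 CPM in secretome and 1.07 to 419 CPM in control muscle. In the outer libraries the 6 slow-fibre genes were all above 0 (median 0.70), against 44.2% of all genes. The 7 adipocyte markers were all below 0 there. The largest slow-fibre sums were 419 CPM in control 8, the muscle with the highest Foxo3 and Ppard, and 437 CPM in secretome 8. Of the 6 genes, 5, Myh7 among them, were at 0 counts in at least 1 library. The 6 endothelial markers had a median of -0.18, with 1 of 6 lower at an unadjusted p under 0.05. These counts stand against 4.92% of all genes lower at that threshold. The part of these cells in the values of Angptl4, Plin2, Foxo1 and Foxo3 was not tested.

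The difference between secretome and control muscle was tested for a change between the 2 sets of libraries. This test called 0 of the 10 genes at the 5% false discovery rate, against 0.0553% of genes. In the outer libraries the difference also holds any between library ranges 1 to 5 and 16 to 20. The test therefore cannot tell a change in the treatment difference from a difference between ranges. At an unadjusted p under 0.05, 5 of 10 were called, Pdk4, Angptl4, Foxo1, Foxo3 and Ppara, all with the lower log2 fold change within libraries 6 to 15, against 11.1% of all genes (5.51% in this direction). Their differences were -1.52 for Pdk4, -1.64 for Angptl4, -1.05 for Foxo1, -0.58 for Foxo3 and -1.06 for Ppara, with edgeR adjusted p between 0.204 and 0.377. The median over the 10 genes was -0.77, against 0.02 over all genes. In the outer libraries, 4 of 10 were higher at an unadjusted p under 0.05 (Pdk4, Foxo1, Foxo3 and Ppara), against 16.1% of all genes (6.53% in this direction). Of the 10, 2 were lower within libraries 6 to 15 (Ucp2 and Angptl4), against 9.95% (4.92% in this direction). A gene was below 0 within libraries 6 to 15 and above 0 in the outer libraries in 8 of 10 cases, against 19.9% of all genes. Of these 8, Ppard lay at only -0.01 within libraries 6 to 15. The 2 comparisons share no muscle.

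**Figure D3:**
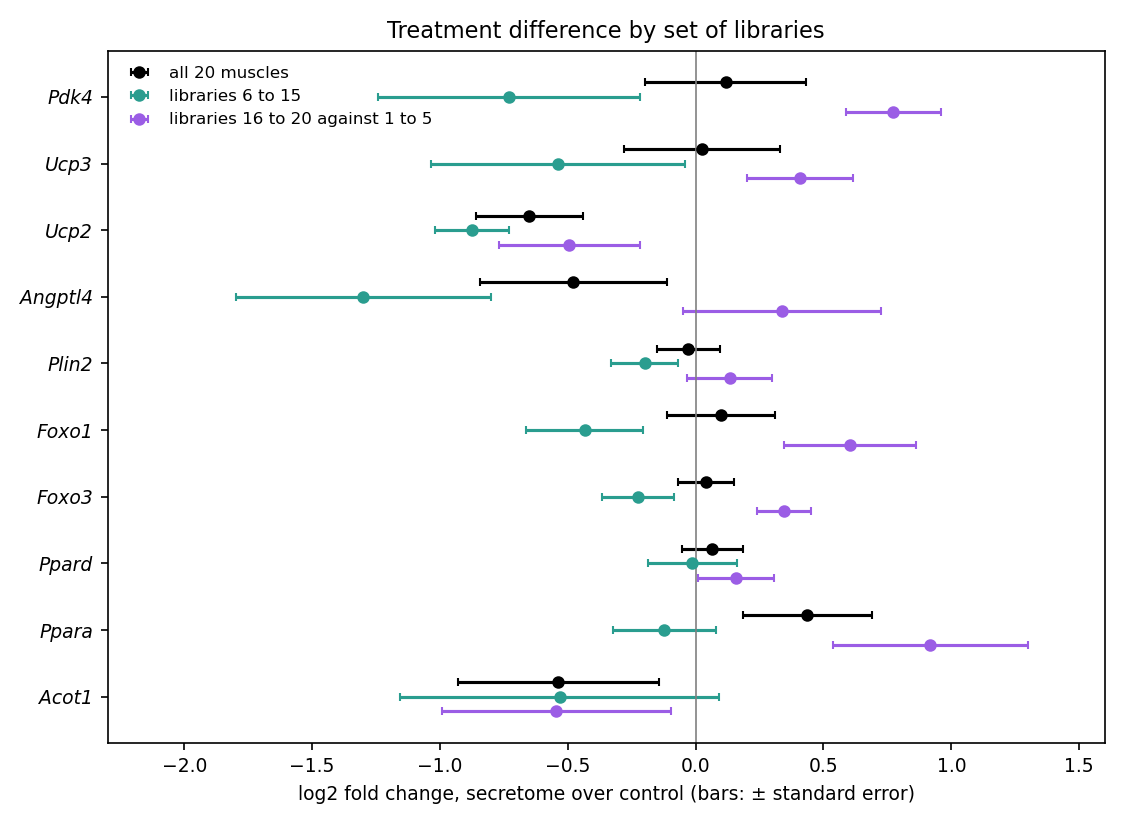
Log2 fold change of secretome over control (horizontal axis, bars give the standard error) for the 10 genes (vertical axis) in all 20 muscles, within libraries 6 to 15 and in the outer libraries. The values within libraries 6 to 15 lie at or below 0, down to -1.30 for Angptl4, while those of the outer libraries reach 0.92 for Ppara.

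Pdk4 and Ucp3 varied together across muscles. After the mean of each treatment and library range had been taken from log2 CPM, their Pearson r was 0.904 (n = 20, two-sided permutation test with 100000 resamples, p = 0.00013, adjusted over 45 pairs 0.00585) and Spearman's rho was 0.777 (p = 0.0005, adjusted 0.0225). The value was 0.812 without secretome 2 and 3, the muscles farthest from the median of Pdk4, 0.919 within libraries 6 to 15 and 0.788 in the others. It was the only 1 of the 45 pairs past the 5% false discovery rate, and r was above 0 in 34 of 45. The pair of forkhead factors, Foxo1 and Foxo3, had an r of 0.646 (permutation p = 0.0133, adjusted 0.212) and a rho of 0.487 (permutation p = 0.0485, adjusted 0.455). That r was 0.299 without control 8 and secretome 6, 0.891 within libraries 6 to 15 and 0.359 in the others. Between Pdk4 and the forkhead genes r was 0.08 for Foxo1 and -0.11 for Foxo3, neither past the false discovery rate.

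**Figure D4:**
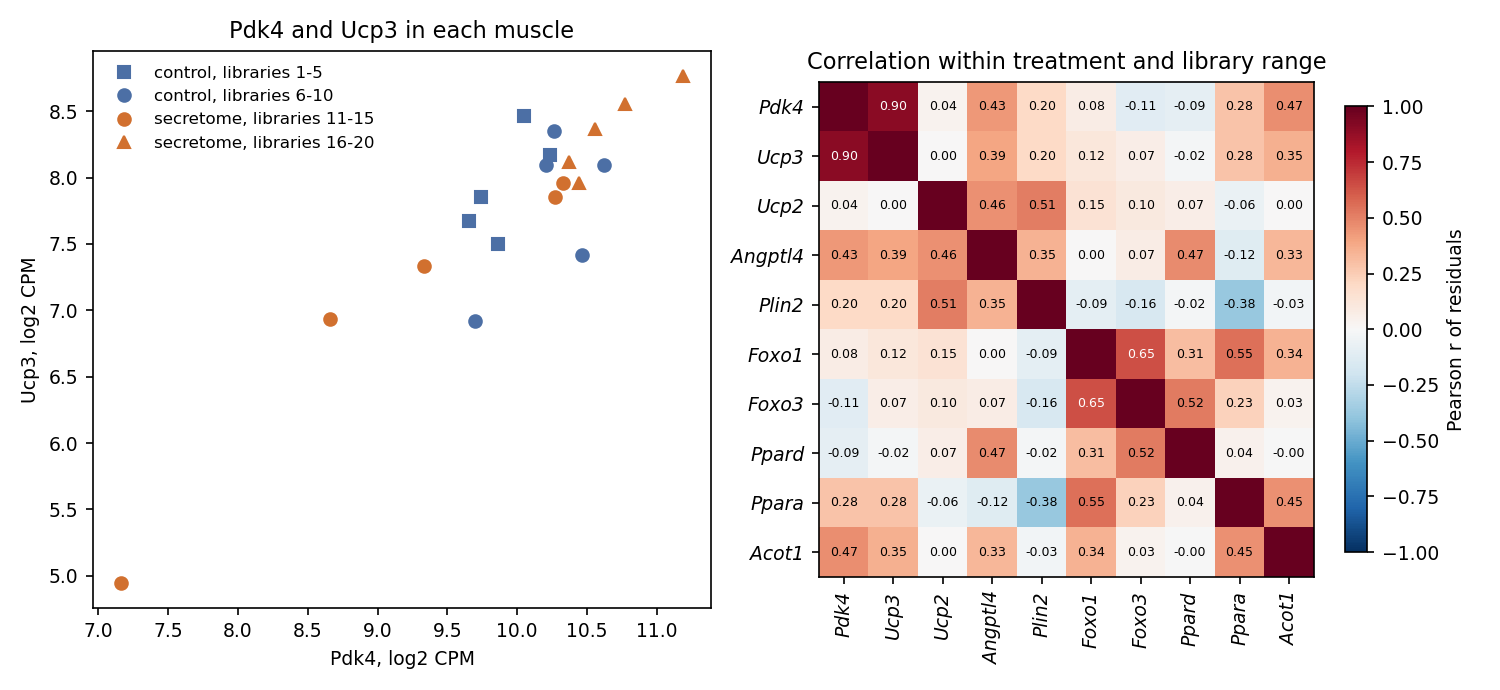
Left, log2 CPM of Ucp3 (vertical axis) against Pdk4 (horizontal axis) in each of the 20 muscles, with colour for treatment and shape for library range. Right, Pearson r between the 10 genes after removal of the means of treatment and library range; the largest is 0.90 for Pdk4 and Ucp3.

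Among 13163 tested and named genes that averaged 1 CPM or more, those most like Pdk4 by Spearman's rho of the same residuals were Itga6 (0.896), Hecw2 (0.889) and Zfp366 (0.8286), of which Itga6 encodes an integrin of endothelial and basal cells. Those most like Foxo1 were Fkbp5 (0.844), Doc2b (0.800) and Dhrs3 (0.800). Fkbp5, a chaperone of the glucocorticoid receptor that glucocorticoids induce, had a mean of 35.9 and 67.5 CPM in control libraries 1 to 5 and 6 to 10 and of 44.6 and 74.4 CPM in secretome libraries 11 to 15 and 16 to 20. Those most like Ppara were the mitochondrial enzymes Idh2 (0.890) and Hadhb (0.845), with the mitochondrial protein gene Tmem65 (0.877). These are descriptions over 20 muscles.

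The other genes of the pathways were taken as lists. Of 29 further FoxO targets, 0 passed the false discovery rate of edgeR in any comparison. Over all muscles 4 were higher and 0 lower at an unadjusted p under 0.05, against 6.52% and 9.21% of all genes. Libraries 6 to 15 had 0 higher and 3 lower, against 5.02% and 4.92%. Sod2, the mitochondrial superoxide dismutase, was at 183 ± 33.9 CPM in control and 233 ± 28.0 CPM in secretome muscle (SD, n = 10 each), with a log2 fold change of 0.35 over all muscles (edgeR adjusted p = 0.158) and 0.14 within libraries 6 to 15. Ulk2, a kinase that starts autophagy, was at 0.26 (adjusted p = 0.206) and 0.17. The median of the list was -0.02 over all muscles, against -0.03 for all genes.

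Of 33 further PPAR targets, 32 were tested and 0 passed in any comparison. Within libraries 6 to 15, 25 of 32 were below 0 (median -0.17), against 52.1% of all genes. In the outer libraries 27 of 32 were above 0 (median 0.34), against 44.2%. The median of the list changed sign between the sets, as did that of the 10 genes, of which 8 turned. Within libraries 6 to 15, 1 was higher and 5 were lower at an unadjusted p under 0.05, against 5.02% and 4.92% of all genes. In the outer libraries 8 were higher and 2 lower, against 6.53% and 9.56%. In the test of the difference between the sets, 12 of 32 were lower at an unadjusted p under 0.05, against 5.51% of all genes, and 0 passed. Vldlr, which takes up triglyceride-rich lipoproteins, was the one higher within libraries 6 to 15, at 326 ± 23.8 CPM in control and 425 ± 45.7 CPM in secretome muscle (SD, n = 5 each), and its log2 fold change was 0.39 there (edgeR adjusted p = 0.404) and 0.35 over all muscles. Hadhb, of the mitochondrial beta-oxidation enzyme, was at 0.28 over all muscles (adjusted p = 0.297), 0.06 within libraries 6 to 15 and 0.48 in the outer libraries.

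**Figure D5:**
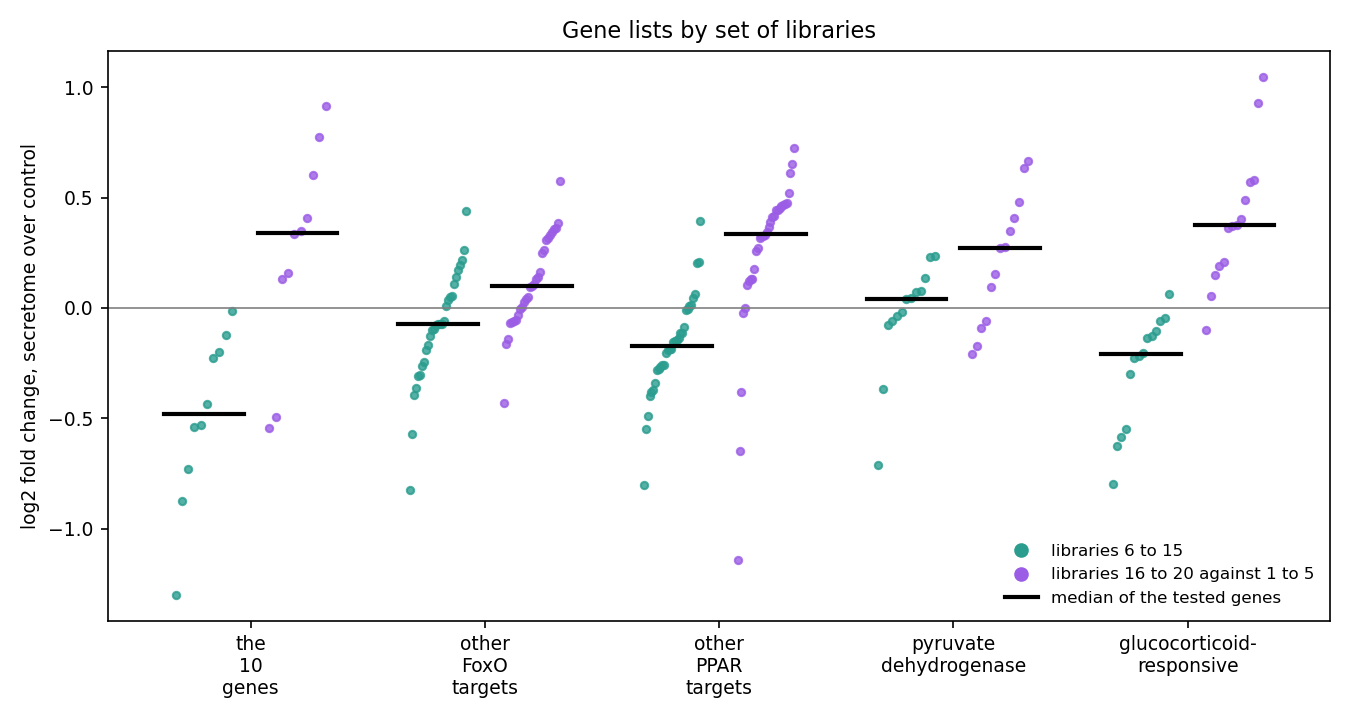
Log2 fold change of secretome over control (vertical axis) of every tested gene in 5 lists (horizontal axis), within libraries 6 to 15 and in the outer libraries, with the median as a bar. The medians of the 10 genes are -0.48 and 0.34, and those of the other PPAR targets -0.17 and 0.34.

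The partners and regulators were also counted. Of 16 receptor partners, coregulators and family members, 0 passed. At an unadjusted p under 0.05, 0 of the 16 were called over all muscles, against 15.7% of all genes. The corepressors Ncor1 and Nrip1 were at 0.22 and 0.30 (edgeR adjusted p = 0.345 and 0.358). Of 12 regulators of FoxO, 3 were higher at an unadjusted p under 0.05 over all muscles, against 6.52% of all genes, and 0 passed. They included Prkaa2, the muscle catalytic subunit of AMP-activated kinase, at 0.34 (edgeR adjusted p = 0.232). Within libraries 6 to 15, 1 of the 12 was higher and 1 lower at that threshold, against 5.02% and 4.92% of all genes. In the outer libraries 2 of the 12 were higher, against 6.53%.

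Of 13 genes of pyruvate entry (subunits of the pyruvate dehydrogenase complex, its other kinases and its phosphatases, and the mitochondrial pyruvate carrier), 4 were higher at an unadjusted p under 0.05 over all muscles, against 6.52% of all genes, and 0 passed. Within libraries 6 to 15, 0 of the 13 were called at that threshold, against 9.95% of all genes. In the outer libraries 5 of the 13 were higher, against 6.53%. Dlat and Dld, both subunits of the complex, were at 0.36 and 0.32 (edgeR adjusted p = 0.188 and 0.161) over all muscles and at 0.07 and 0.23 within libraries 6 to 15. Among 20 paralogues of the 10 genes, 16 were tested over all muscles and 0 passed. At an unadjusted p under 0.05, 0 were called over all muscles, against 15.7% of all genes. Within libraries 6 to 15, 1 was lower at that threshold, against 4.92% of all genes. Plin1, the droplet coat of adipocytes, was at -0.68 (adjusted p = 0.318) and Angptl1 at -0.43 (adjusted p = 0.501) over all muscles. Ucp1, the carrier of brown fat, had 0 counts in all 20 libraries.

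Of 14 glucocorticoid-responsive genes, 13 were below 0 within libraries 6 to 15 (median -0.21) and 13 above 0 in the outer libraries (median 0.37), against 52.1% and 44.2% of all genes, and 0 passed in either. Klf9 was at 0.07 and 0.37 in the 2 comparisons and Errfi1 at -0.11 and 0.57. The difference between the 2 sets was below 0 for 14 of 14, against 48.3% of all genes, with 4 at an unadjusted p under 0.05, against 5.51%. Fkbp5, named above, was at -0.59 and 1.05, and its difference had an unadjusted p of 0.000181 and an edgeR adjusted p of 0.129. The hour of day at which each muscle was taken is not given in the sources used here, and its part in these values was not tested.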

How the data were processed

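The authors deposited whole-number read counts per gene for 20 quadriceps muscles, without normalization, from stranded ribosome-depleted libraries read in pairs of 150 bases. The submitters' processing notes name cutadapt 1.16, STAR 2.7.9a, featureCounts 1.6.3, DESeq2 1.34.0 and the mouse build GRCm39. The annotation and the strand setting of the counting are not given in the sources used here. Symbols and exon lengths came from GENCODE M21 (GRCm38), and identifiers with a symbol held at least 98.6% of each library. The extraction protocol in the labels speaks of myotubes, although tissue and source are given as quadriceps.

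Counts were filtered with filterByExpr, scaled with TMM and tested with the robust quasi-likelihood F-test of edgeR 4.0.16 (R 4.3.3), with Benjamini-Hochberg adjustment at 5%. The standard error is the size of the log2 fold change divided by the square root of the F statistic. CPM are counts scaled to the TMM-adjusted library size, and log2 CPM used a prior count of 2. The numbers tested were 14471 genes in all muscles, 14469 within libraries 6 to 15 and 14667 in the outer libraries. DESeq2 1.42.0, voom of limma 3.58.1 and the other alternatives are given in the closing section. Treatments and replicate numbers came from the sample labels, and the steps were tested on simulated data. Each muscle is labelled as a sample of its own, and where samples did not come from separate mice the p-values measure only the spread between these samples.

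The 10 genes and all lists were chosen with earlier results of these data known. Named were the 10 genes, from each pathway list and the nuclear RNAs the 2 genes of smallest p, 1 leading gene of each marker list, and the 3 genes most like Pdk4, Foxo1 and Ppara. Genes that overlap one of the 10 in the annotation, Ucp1 and the fold changes of Fkbp5 were added after the values were seen, and 1 gene that the rule names is not reported here. Whether same-numbered muscles of the 2 treatments were paired could not be shown from these data. The main test used no block, and a fit with one is given in the closing section.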

Additional observations from a re-analysis of the deposited data

Results flagged for a closer look

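Of 60 groups of muscles examined for a single value far from the others, 4 had one, where chance gives about 3. Ucp3 in secretome 2 was the lowest of the 10 secretome muscles at 30.8 CPM, with the next at 122 CPM, and Pdk4 was also lowest in that muscle. Foxo1 in control 8 was the highest of the 10 controls at 138 CPM, with the next at 76.4 CPM. Ppara in secretome 6 was the highest of the 10 secretome muscles at 32.0 CPM, with the next at 17.2 CPM. Ppard in secretome 9 was the highest of secretome libraries 16 to 20 at 47.1 CPM, with the next at 34.8 CPM.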

How the results depend on the processing

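Over all muscles 1 gene passed the false discovery rate, and this count was 216 with DESeq2 (70 higher, 146 lower), 3 with voom, 0 with the 3 library ranges as a term and 0 with the replicate number as a block, and ranged from 0 to 15 with a muscle left out. Within libraries 6 to 15 it was 0, against 37 with DESeq2 (11 higher, 26 lower) and 11 without a filter on low counts, and 0 to 2 with a muscle left out. In the outer libraries it was 0, and 0 in each fit that left out a muscle, the only alternative run there. For the difference between the sets it was 8, against 2 without a filter, and 1 to 9 with a muscle left out.

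None of the 10 genes passed over all muscles under any of these alternatives, and none in the outer libraries with a muscle left out. Within libraries 6 to 15, Ucp2 passed with DESeq2 (-0.88, adjusted p = 0.000203) and without a filter (-0.88, adjusted p = 0.00408), while with a muscle left out its value ranged from -0.93 to -0.80 and its adjusted p from 0.123 to 0.516. The adjusted p ranged from 0.121 to 0.351 over all muscles with a muscle left out.

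The sign over all muscles turned with the term for library ranges in Pdk4 (-0.74), Ucp3 (-0.55), Foxo1 (-0.44), Foxo3 (-0.24), Ppard (-0.023) and Ppara (-0.13), with voom in Pdk4 (-0.32), Ucp3 (-0.32) and Foxo3 (-0.0030), and with the replicate block in Pdk4 (-0.14) and Ucp3 (-0.14). With the term for library ranges, the treatment difference rests on libraries 6 to 15, the only range that holds both treatments. These turns therefore restate the comparison within libraries 6 to 15 and are no separate result. There Pdk4 was at -0.73, Ucp3 at -0.54, Foxo1 at -0.43, Foxo3 at -0.22, Ppard at -0.013 and Ppara at -0.12. The cause of the turns with voom and with the replicate block was not tested. With a muscle left out, values over all muscles ranged from -0.041 to 0.25 for Pdk4, -0.10 to 0.16 for Ucp3, -0.081 to 0.032 for Plin2 and -0.070 to 0.27 for Foxo1. Within libraries 6 to 15 they ranged from -0.10 to 0.16 for Ppard and -0.25 to 0.017 for Ppara. The difference between the sets ranged from -0.82 to 0.35 for Acot1.

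Same-numbered muscles of the 2 treatments had correlations of their deviations between -0.24 and 0.221, of which 2 of 10 were over 0.1. Same-numbered muscles always lay in different library ranges, so these correlations cannot show whether a number marks a shared origin. The block moved the count from 1 to 0. No paired analysis was possible within libraries 6 to 15 because control 6 to 10 and secretome 1 to 5 share fewer than 2 replicate numbers. With residuals from the 2 treatment means alone, 4 pairs of genes correlated past the false discovery rate in place of 1. Acot1 had the fewest reads of the 10, with 1 to 27 counts per library.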

Other observations

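After the data were seen, the 10 genes were set against 6 lists (60 relations), with the means of treatment and library range removed. The measure of each list was the mean log2 CPM of its tested genes, not their sum. Of these, 2 had a Pearson r past a 5% false discovery rate. Pdk4 and the 6 endothelial markers had an r of 0.659 (n = 20, permutation p = 0.00012, adjusted 0.0072), which was 0.728 without secretome 2 and 3, 0.731 within libraries 6 to 15 and 0.739 in the others. Their Spearman's rho was 0.764 (permutation p = 0.00082, adjusted 0.0492), and Cdh5, the cadherin of endothelial junctions, was at 47.4 ± 14.1 CPM in control and 45.6 ± 8.30 CPM in secretome muscle (SD, n = 10 each). Ppard and the 14 glucocorticoid-responsive genes had an r of 0.722 (permutation p = 0.00156, adjusted 0.0468), which was 0.553 without control 8 and secretome 9, 0.798 within libraries 6 to 15 and 0.716 in the others, and a rho of 0.645 (permutation p = 0.00695, adjusted 0.150).

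Among markers that belong to no comparison above, the 5 neutrophil genes, of which Csf3r is the receptor for a granulocyte growth factor, added up to 96.1 CPM in control 3 and 106 CPM in secretome 8, against medians of 9.60 and 8.91 CPM. Myh7, the slow myosin, ranged from 0 to 4544 counts per library. The nuclear RNAs Malat1 and Meg3 had log2 fold changes of -0.10 and -0.31 over all muscles (edgeR adjusted p = 0.622 and 0.410). The lowest share of counts from the mitochondrial genome was 0.977%, in control 9.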
